A study of Mus musculus with 4 samples.

Results

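The nuclear genes of the mitochondrial respiratory chain were followed in lymphoid-primed multipotent progenitors (LMPPs) of mouse bone marrow, early blood progenitors that keep lymphoid and myeloid potential. The members were the genes whose symbol in the array's annotation has the form of a subunit name of complexes I to V (Nduf, Sdh, Uqcr, Cox5 to Cox8 and Atp5), taken only from probe sets with a single gene. Cox4i1 falls outside this form and is read with other subunits below. There were 77 such genes among 18193 on the array, 34 of complex I, 4 of complex II, 8 of complex III, 14 of complex IV and 17 of complex V. Where a gene had several probe sets, the brightest on average was used. Both groups were C57Bl/6 mice of 6 to 8 weeks, wild type or Lyl1-null. Lyl1 encodes a transcription factor that binds DNA through a basic helix-loop-helix and acts in early blood cells. LMPPs were sorted as lineage-negative, Sca-1+ and c-Kit+ cells with high Flt3, their RNA was amplified, and 4 libraries, 2 per genotype, were each hybridised to an expression array. Whether libraries of 1 genotype are from different mice is not stated, and p-values therefore reflect library-to-library spread alone. That spread may be technical, though the Lyl1-null libraries differed in sex-linked RNA, as given below. Values are log2 expression values after RMA, and the number of arrays limits the precision.

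The respiratory chain passes electrons from NADH through complex I and from succinate through complex II to ubiquinone, then through complex III and cytochrome c to complex IV, which reduces oxygen. Complexes I, III and IV pump protons, and complex V, the ATP synthase, uses the proton gradient to make ATP. Most subunits are encoded in the nucleus and imported, while the mitochondrial genome supplies a core of hydrophobic subunits to all complexes but complex II. Blood stem cells are known to rely much on glycolysis, and their use of oxidative phosphorylation increases as progenitors commit and divide.

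The library labelled Lyl1-null 2 (replicate 2) went against its label and stood apart, so results are given with it and without it, that is for the library labelled Lyl1-null 1 (replicate 1) alone. Lyl1 was at 12.34 and 12.29 in the wild-type libraries, 5.14 in the library labelled Lyl1-null 1 and 10.32 in the one labelled replicate 2, which is 25.1% of the wild-type level. The sources used here do not place the probe set relative to the deleted part of Lyl1. Xist, the RNA of the silenced X chromosome, read 14.26 in the library labelled replicate 2, against 5.81 to 6.30 in the others. The Y-linked gene Eif2s3y read 10.15 and 10.12 in wild type, 10.07 in replicate 1 and 8.44 in replicate 2. Replicate 2 thus combined high Xist with Eif2s3y that was lower but still above the expression filter (5.69). Whether it holds RNA from mice of both sexes was not tested. The deposited values of replicate 2 had the narrowest spread, with an SD over probe sets of 2.34 against 2.44 to 2.48. Among the LMPP markers, 6 of 8 were on the array with a single gene and all 6 were above the expression filter. Their mean was 11.12 and 11.28 in wild type, 11.19 in the library labelled Lyl1-null 1 and 10.63 in the one labelled replicate 2. Flt3 (11.92 and 12.12 in wild type, then 11.80 and 11.26), Kit (10.07 and 10.27, then 9.56 and 8.97) and Cd34 were lower in both Lyl1-null libraries than in both wild-type libraries, and Il7r (9.37 and 9.62, then 10.25 and 10.03) was higher in both. Cd27 was at 8.45 and 8.58 in wild type, then at 8.71 and 7.60. Dntt was at 14.17 and 14.21, then at 14.24 and 14.02. Cd27 and Dntt thus lay above both wild-type libraries in replicate 1 and below both in replicate 2. Of 8 neutrophil markers, 6 were above the filter, and their list mean was 6.69 to 6.90 in wild type and 7.76 to 8.10 in the libraries labelled Lyl1-null. Ngp, Camp, Ltf, S100a8, S100a9 and Lcn2 were higher in both of the latter than in both wild-type libraries, while Elane and Prtn3 differed by −0.02 and −0.11. In wild type and Lyl1-null, list means were 5.39 to 6.50 and 5.62 to 6.15 for erythroid markers, 6.13 to 6.26 and 6.07 to 6.21 for megakaryocyte markers, and 6.17 to 6.31 and 6.29 to 6.50 for B cell markers. They were 6.38 to 6.46 and 6.46 to 6.54 for T and NK cell markers, 7.22 to 7.29 and 7.22 to 7.27 for macrophage and dendritic cell markers, 5.52 to 6.40 and 5.68 to 6.20 for stroma, and 10.00 to 10.14 and 9.92 to 10.00 for cycling genes. Some single markers differed more between libraries of 1 genotype than the list means. The stroma marker Col1a1 was at 5.23 and 7.90 in wild type, then at 5.47 and 7.22. The erythroid marker Slc4a1 was at 7.91 and 5.48, then at 6.39 and 7.34. Others, such as the stroma marker Cxcl12 (5.35 and 5.50, then 5.44 and 5.48), differed little. The part of these markers and of the sex-linked RNA in the results below was not tested. In a bulk sample, fewer cells of a type and less RNA per cell cannot be told apart.

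Respiratory chain genes were bright. Of the 77 members, 73 had a mean at or above the filter, the median of all probe-set means (5.69), and 62 lay at or above the 90th percentile of those means. The 4 below the filter were Cox7a1 and Cox8b, isoforms known from heart and skeletal muscle, Cox7b2, an isoform known from testis, and the complex I gene Ndufb4. Cox7a1 ranged from 4.48 to 5.17, Cox7b2 from 3.48 to 3.77, Cox8b from 4.94 to 5.38 and Ndufb4 from 3.81 to 4.51 over the 4 libraries. Probe sets that list several genes, among them those of Ndufs6 and Ndufa11, were not analysed here.

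With all 4 libraries, no respiratory chain gene separated the genotypes beyond the spread between libraries. None of the 73 tested members passed limma's test at an adjusted p of 0.05, and 0 had an unadjusted p under 0.05. Over all 11196 genes tested, 1 passed, Ctse (a protease gene named here after its value was seen), or 0.00893%, and 766 had an unadjusted p under 0.05. Differences, given on the log2 scale as Lyl1-null less wild type, ran from −0.51 for Sdhb to 0.46 for Cox6a2, with a median of 0.0042 beside −0.047 over all genes. There were 37 positive and 36 negative members, a split that followed the scaling. Of members, 49.3% were negative as deposited, 35.6% after quantile normalization and 68.5% after median centring. Of all genes, 56.9%, 44.0% and 67.0% were negative in the same order. The groups did not overlap in 13 tested members with higher and 6 with lower values in the Lyl1-null libraries, where the same held for 18.7% and 24% of all genes. A design of this size recovers few small changes. In simulated data with 2 libraries per group, limma found 14.4% of 2-fold and 88.5% of 4-fold changes among 11196 genes. In the fit of all 4 libraries, Lyl1 itself differed by −4.58 (SE 1.57, adjusted p = 0.644 from limma) and did not pass. It was at 5.14 and 10.32 in the libraries labelled Lyl1-null. Recovery where these libraries lie so far apart was not tested.

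Each library labelled Lyl1-null, set against wild type alone, had its own median. In replicate 1, 59 of 73 members lay above the wild-type mean, against 48.3% of all genes, and the median was 0.11 beside −0.0086. In replicate 2, 47 of 73 lay below it (64.4%, against 56.8% of all genes), and the median was −0.11 beside −0.078. The share below was 50.7% after quantile normalization and 76.7% after median centring, against 44.8% and 66.7% of all genes. Both comparisons use the same wild-type libraries. Between the 2 wild-type libraries, the median over the members of the first less the second was −0.054. The median absolute difference of single members was 0.10 between the wild-type libraries and 0.30 between those labelled Lyl1-null. The median in replicate 1 was 0.078 with median centring (56 of 73 positive), 0.089 with the mean of probe sets (56 of 72), 0.11 with the filter at the 90th percentile (51 of 62) and 0.12 with quantile normalization (58 of 73). In the same order, 41.8%, 48.5%, 47.4% and 56.6% of all genes were positive, with medians of −0.041, −0.0055, −0.011 and 0.033.

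**Figure D1:**
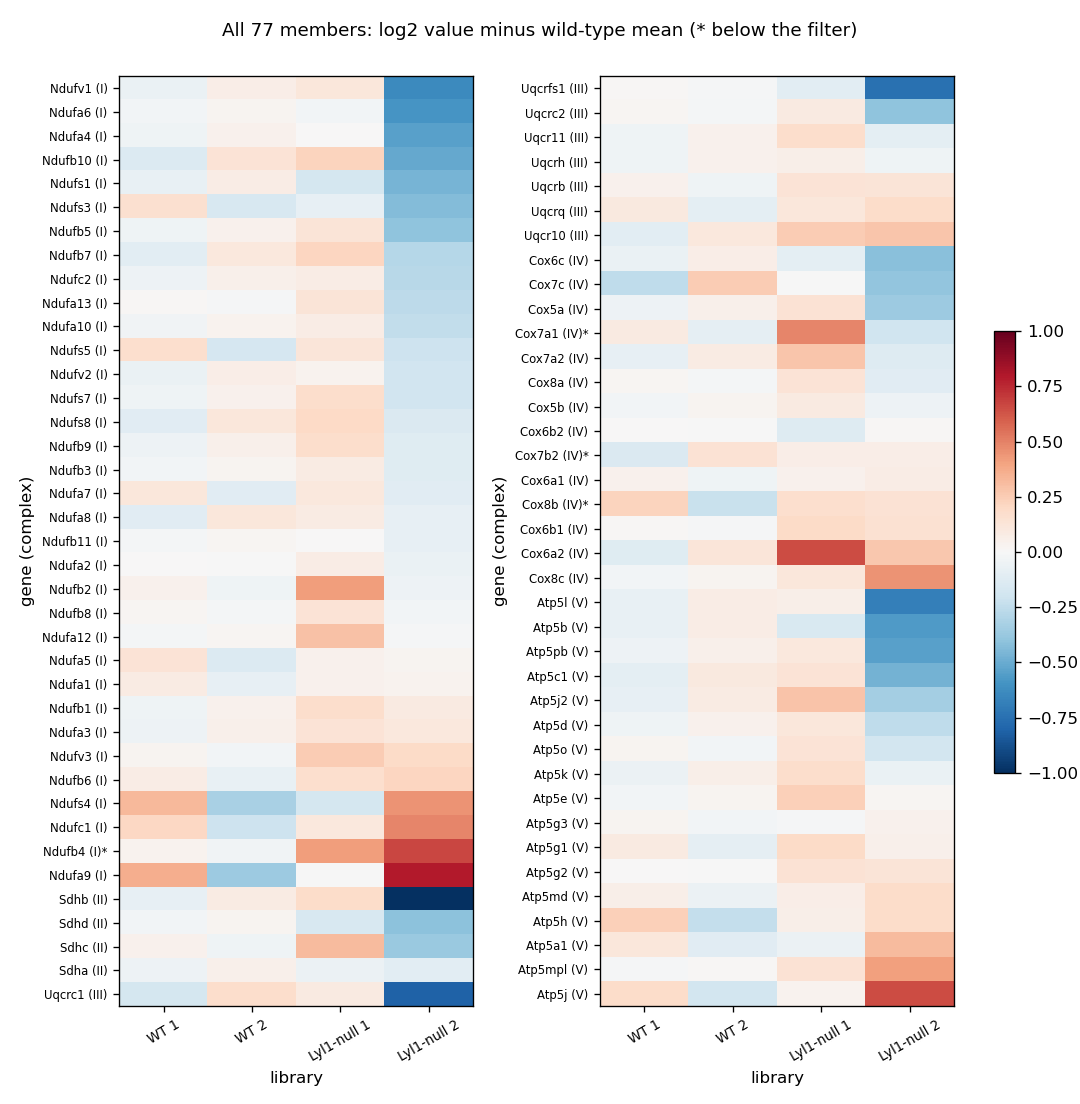
Each of the 77 members is a line and each library a column; colour gives the log2 value minus the mean of the wild-type libraries, from −1 (blue) to 1 (red), with genes ordered by complex and then by the value in Lyl1-null 2. Blue cells gather in Lyl1-null 2, darkest for Sdhb, Uqcrc1, Uqcrfs1 and Atp5l, while Lyl1-null 1 is mostly pale red.

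All 5 complexes had a positive median in replicate 1, and all but complex V a negative one in replicate 2. In replicate 1 the medians were 0.10 for complex I (28 of 33 genes positive), 0.061 for complex II (2 of 4), 0.10 for complex III (7 of 8), 0.11 for complex IV (8 of 11) and 0.11 for complex V (14 of 17). In replicate 2 they were −0.12 for complex I (24 of 33 genes negative), −0.39 for complex II (4 of 4), −0.071 for complex III (5 of 8), −0.051 for complex IV (6 of 11) and 0.020 for complex V (8 of 17). With both libraries they were −0.0040, −0.18, 0.024, 0.021 and 0.055 in that order. Complex II, with only 4 genes, had the lowest median in all 3. With probe sets averaged, its median over all 4 libraries moved from −0.18 to −0.091, still the lowest. Whether the complexes differ from one another was not tested.

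**Figure D2:**
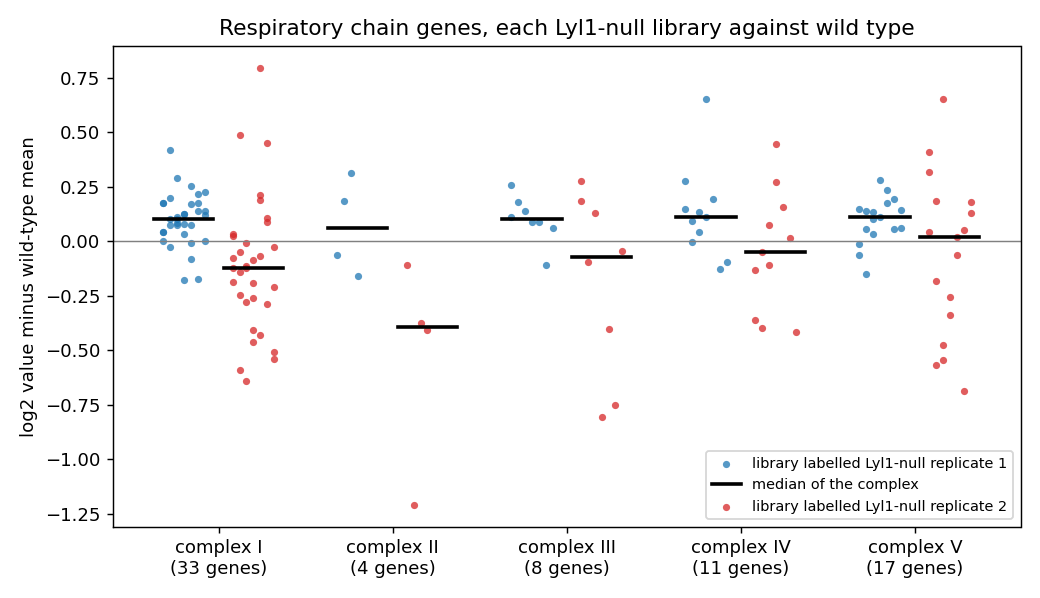
Points are the 73 tested members, grouped by complex on the horizontal axis; the vertical axis is the log2 value of one Lyl1-null library minus the wild-type mean, blue for replicate 1 and red for replicate 2, with a black bar at the median of the complex. Blue points are tight and mostly above 0, while red points spread from −1.21 (Sdhb) to 0.80 (Ndufa9).

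In the fit of the library labelled Lyl1-null 2 against both wild-type libraries, which leaves out replicate 1 and assumes that the lone library varies like wild type, 4 of 73 members passed and all 4 were lower. Lower genes made up 10.8% of all genes in that fit and higher genes 3.94%, with 0 members among the latter. The members' share, 5.48%, was below that background. Quantile normalization and median centring moved the median of all genes in this fit from −0.078 to 0.056 and −0.196, and the calls from 441 higher and 1211 lower to 1242 and 1107, and to 436 and 2366. With no filter on dim genes, 18193 genes were tested and 3 passed higher and 2 lower, so that nearly all calls of this fit were lost. Under the same scalings, members called went from 0 higher and 4 lower to 3 and 4 (Atp5j, Cox8c and Ndufa9 higher, Ndufv1, Sdhb, Uqcrc1 and Uqcrfs1 lower), and to 0 and 12. In the fit of the library labelled replicate 1, which leaves out replicate 2, 0 members passed, with 2 at an unadjusted p under 0.05. Of all genes, 0.196% passed there, 0.0893% higher and 0.107% lower.

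Sdhb, the iron-sulfur subunit of complex II that carries electrons from the flavin to ubiquinone, showed the largest of these changes. It was at 11.83 and 11.99 in wild type, 12.09 in the library labelled Lyl1-null 1 and 10.70 in the one labelled replicate 2. Only the last lay below wild type, and Sdhb was the 1 member at least 2-fold from the wild-type mean in either library labelled Lyl1-null, where 5.62% of all genes in the fit of replicate 2 were. Sdhb fell by 1.21 there (SE 0.17, adjusted p = 0.0126 from limma), to 43.3% of wild type. With all 4 libraries its difference was −0.51 (SE 0.45, adjusted p = 0.694). The other complex II genes differed less. Sdha, the flavoprotein that oxidises succinate, was at 12.26 and 12.35 in wild type. It was at 12.24 and 12.20 in the libraries labelled Lyl1-null 1 and 2, below wild type in both. A second Sdha probe set was at 12.18 and 11.88 in wild type, then at 11.70 and 11.96. In replicate 2 that probe set lay between the wild-type libraries. Sdhc, a membrane anchor, was at 10.15 and 10.07 in wild type and at 10.43 and 9.74, on either side of it. Sdhd, the other anchor, was at 10.57 and 10.63 in wild type and at 10.44 and 10.19, below wild type in both. None of these 3 passed in any of the 3 fits, and a second Sdhd probe set differed by 0.06 in both libraries. Sdhb has 1 probe set.

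The other 3 genes called in replicate 2, of complexes III and V, also have 1 probe set each. Uqcrfs1, the Rieske iron-sulfur protein of complex III, was at 10.72 and 10.70 in wild type, 10.60 in the library labelled Lyl1-null 1 and 9.96 in the one labelled replicate 2. It fell by 0.75 in replicate 2 (SE 0.16, adjusted p = 0.0332), to 59.5% of wild type, and differed by −0.11 in replicate 1. Both Lyl1-null libraries thus lay below both wild-type libraries, unlike the other 3 called genes. Uqcrc1, a core protein of complex III, was at 10.85 and 11.21 in wild type, then at 11.12 and 10.23. It fell by 0.81 in replicate 2 (SE 0.20, adjusted p = 0.0459), to 57.2%. Atp5l, subunit g in the membrane part of the ATP synthase, was at 8.30 and 8.45 in wild type, then at 8.43 and 7.69. It fell by 0.69 in replicate 2 (SE 0.17, adjusted p = 0.0448), to 62.2%, but missed the threshold with quantile normalization (−0.46, adjusted p = 0.0941). With no filter on dim genes none of the 4 passed, at adjusted p-values from 0.0651 to 0.0917. In replicate 1, Sdhb, Uqcrc1 and Atp5l read 0.18, 0.09 and 0.06.

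**Figure D3:**
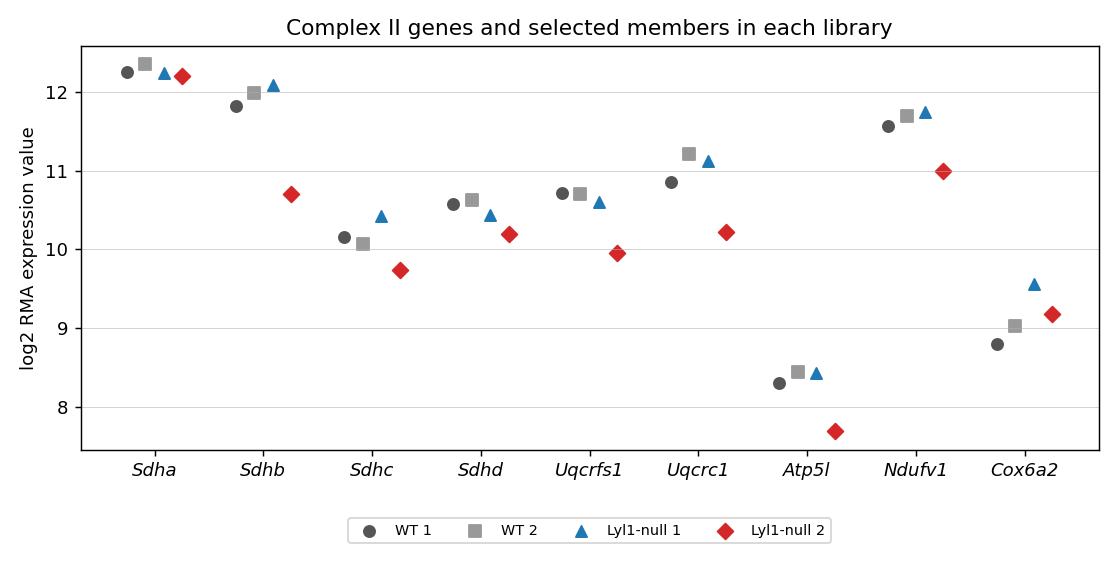
Log2 RMA expression values (vertical axis) of the 4 complex II genes and 5 other members, with 1 point per library (grey circle and square, wild type; blue triangle and red diamond, the libraries labelled Lyl1-null 1 and 2). The red diamond lies apart below the rest for Sdhb, Uqcrfs1, Uqcrc1, Atp5l and Ndufv1, and Cox6a2 has both Lyl1-null libraries above wild type.

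The promoters of these 4 genes are shown because they are the members that passed in a fit, and because nuclear respiratory genes are known to share sites for the activators NRF1, GABPA, YY1 and ERRA. Windows run from 250 bases before to 50 after the RefSeq start on GRCm38.p6 and are written 5′ to 3′ along the gene. Capitals mark matches, on either strand, to the palindromic core of the NRF1 site (the run of capitals nearest the end of the Uqcrc1 window), CCGGAAG (GABPA), AAGATGGCG (YY1), AAGGTCA (ERRA) and CAGATG, an E-box of the kind bound by Lyl1 and its relatives. No motif contains another.
Sdhb (chr4:140961021-140961320, plus strand): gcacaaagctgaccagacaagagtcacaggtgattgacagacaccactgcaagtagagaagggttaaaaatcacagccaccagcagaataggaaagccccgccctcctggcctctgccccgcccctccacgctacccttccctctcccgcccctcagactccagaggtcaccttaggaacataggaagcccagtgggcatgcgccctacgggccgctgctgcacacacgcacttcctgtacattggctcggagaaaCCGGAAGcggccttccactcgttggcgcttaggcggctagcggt
Uqcrfs1 (chr13:30545267-30545566, minus strand): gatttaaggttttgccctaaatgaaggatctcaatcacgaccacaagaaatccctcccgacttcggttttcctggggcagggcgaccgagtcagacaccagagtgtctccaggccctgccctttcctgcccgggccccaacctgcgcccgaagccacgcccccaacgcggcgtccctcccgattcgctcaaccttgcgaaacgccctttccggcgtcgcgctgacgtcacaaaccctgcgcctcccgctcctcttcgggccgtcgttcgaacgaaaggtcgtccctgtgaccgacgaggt
Uqcrc1 (chr9:108936398-108936697, plus strand): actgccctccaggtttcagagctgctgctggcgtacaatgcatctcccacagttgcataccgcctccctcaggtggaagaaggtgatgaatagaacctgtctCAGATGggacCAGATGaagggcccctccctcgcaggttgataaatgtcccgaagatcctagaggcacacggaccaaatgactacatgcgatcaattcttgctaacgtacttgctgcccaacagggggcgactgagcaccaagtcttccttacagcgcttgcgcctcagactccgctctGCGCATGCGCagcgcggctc
Atp5l (chr9:44920693-44920992, minus strand): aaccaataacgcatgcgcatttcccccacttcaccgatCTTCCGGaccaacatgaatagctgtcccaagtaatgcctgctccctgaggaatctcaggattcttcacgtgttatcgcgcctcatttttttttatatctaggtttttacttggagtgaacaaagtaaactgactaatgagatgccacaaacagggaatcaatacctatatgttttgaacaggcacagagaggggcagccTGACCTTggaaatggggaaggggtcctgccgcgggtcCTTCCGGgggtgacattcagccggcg

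The Sdhb window held 1 GABPA match starting at base 7 after the start, and that of Atp5l held 2 GABPA matches and 1 ERRA match. The Uqcrc1 window held an NRF1 match starting at base 31 and 2 E-box matches. That of Uqcrfs1 held no exact match, so no exact match was common to the 4 genes. Sites that depart from these letters were not searched for. RefSeq windows were found for 65 of the 77 members, 70 windows in all, and were compared with 32851 windows of all genes. NRF1 letters stood in 5.71% of member windows and 0.971% of all windows, GABPA letters in 24.3% and 8.86%, YY1 letters in 8.57% and 1.40%, and ERRA letters in 11.4% and 4.72%. The E-box went the other way, at 12.9% and 17.2%. Member windows were richer in G and C, with a median of 58.5% against 52.7%. A match describes the letters and does not show a bound site. In 21 of the 65 members (32.3%) the window overlapped that of a gene on the opposite strand, as in 11.9% of all genes. The window of Atp5j overlaps that of Gabpa, the gene for the DNA-binding subunit of GABP, and that of Sdhd overlaps that of Timm8b, an import factor.

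Among complex I genes, the 3 with the smallest p below wild type were Ndufs1, Ndufa6 and Ndufs3, and none passed. Ndufs1, the large iron-sulfur subunit of the NADH-oxidising N module, was at 9.38 and 9.52 in wild type, then at 9.27 and 8.99, with both Lyl1-null libraries lower (difference −0.32, SE 0.18). Ndufa6 was at 11.78 and 11.83 in wild type, then at 11.78 and 11.21. Ndufs3, a core subunit of the ubiquinone-reducing Q module, was at 12.36 and 12.04 in wild type, then at 12.12 and 11.77. Only Ndufs1 kept the groups apart. Ndufv1, which binds NADH and the flavin, was singled out after its values were seen, since it lay just outside the threshold in replicate 2 (−0.64, SE 0.17, adjusted p = 0.0515). Its 3 probe sets differed by −0.64, −0.66 and −0.75 in replicate 2 and by 0.11, 0.13 and 0.04 in replicate 1.

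The complex I genes with the smallest p above wild type were Ndufv3, Ndufc1 and Ndufb6. Ndufv3, a small subunit of the N module, was at 10.94 and 10.88 in wild type, then at 11.17 and 11.10, a difference of 0.22 (SE 0.16). Ndufb6, of the membrane arm, was at 12.72 and 12.57, then at 12.81 and 12.86, a difference of 0.19 (SE 0.16). Ndufc1, also of the membrane arm, was at 11.74 and 11.32, then at 11.63 and 12.02. Ndufv3 and Ndufb6 had both Lyl1-null libraries above wild type and Ndufc1 did not. The highest single value among members in replicate 2, 0.80 for Ndufa9, stood beside wild-type libraries at 12.69 and 11.96. By arm, the 18 tested membrane-arm genes all lay above the wild-type mean in replicate 1 (median 0.13), and 13 of 18 lay below it in replicate 2 (−0.10). Ndufb11 did so in replicate 1 by only 6.5e-05, and its other probe sets read −0.03 and −0.11 there. A dimmer probe set of each of Ndufb5, Ndufb7, Ndufc1 and Ndufc2 also read below wild type in replicate 1. Dimmer ones of Ndufa3, Ndufa10, Ndufb2, Ndufb6 and Ndufb8 read above it. Medians in replicates 1 and 2 were 0.075 and −0.066 for 7 N-module genes and 0.11 and −0.16 for 4 Q-module genes. Ndufa1 and Ndufb11, the X-linked members among those with a RefSeq window, read 0.03 and −0.08 in the Xist-high library. Ndufa4, which the rule counts with complex I by its name, is now assigned to complex IV and read 0.0022 and −0.54.

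In complex III, the core protein gene Uqcrc2 was at 11.82 and 11.79 in wild type, then at 11.89 and 11.40. Uqcrb and Uqcrq, small subunits, differed by 0.13 and 0.15, and Uqcr10 by 0.27 (SE 0.17), each with both Lyl1-null libraries above wild type. Uqcr10 was at 7.82 and 8.02 in wild type, then at 8.178 and 8.198, and its 3 probe sets all read above wild type in both libraries, from 0.26 to 0.51. The second Uqcrc2 probe set differed by 0.05 in replicate 2 where the first differed by −0.40. The 3 lowest differences of complex III in replicate 2 were those of the Rieske protein and the core proteins, and the 5 small subunits lay between −0.096 and 0.28.

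In complex IV, Cox6a2, the isoform of subunit 6a known from heart and skeletal muscle, had the smallest p of all 73 members. It was at 8.79 and 9.03 in wild type, then at 9.56 and 9.19, a difference of 0.46 (SE 0.20, unadjusted p = 0.0685, adjusted p = 0.644). A second probe set gave 0.74 in replicate 1 and −0.06 in replicate 2. The general isoform Cox6a1 was at 14.43 and 14.34 in wild type, then at 14.43 and 14.46. Cox8c, a testis isoform, was at 7.70 and 7.77, then at 7.85 and 8.18, and its second probe set read 0.91 in replicate 2. The common isoforms Cox7a2 and Cox8a differed by 0.07 and 0.01 and Cox6b1 by 0.18, while the testis isoform Cox6b2 differed by −0.06. Cox6a1, Cox7a2, Cox8a and Cox6b2 were within 1 SE of 0, and scaling turned their signs: the first 3 were −0.016, −0.0034 and −0.062 with median centring, and Cox6b2 was 0.090 with quantile normalization. Below wild type the smallest p-values belonged to Cox6c (−0.26, lower in both libraries), Cox7c (−0.20) and Cox5a (−0.11), none past the threshold.

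In complex V, Atp5b, the catalytic beta subunit, was at 12.38 and 12.52 in wild type, then at 12.30 and 11.88, below wild type in both (difference −0.36, SE 0.20). Atp5pb, subunit b of the peripheral stalk, was at 10.77 and 10.87, then at 10.92 and 10.28. Above wild type, Atp5j, coupling factor 6 of the stalk, was at 13.79 and 13.43, then at 13.65 and 14.26, and Atp5mpl, a small membrane subunit, at 10.981 and 10.999, then at 11.14 and 11.40. None of these passed, and only Atp5b and Atp5mpl kept the groups apart. The 5 genes of the F1 head had medians of 0.11 in replicate 1 and −0.26 in replicate 2, and the other 12 had 0.12 and 0.046. The proton-conducting subunit c is made from Atp5g1, Atp5g2 and Atp5g3, which are known to encode the same mature protein behind different import sequences. These differed by 0.12 (SE 0.17), 0.14 (SE 0.15) and 0.015 (SE 0.16), and by at most 0.19 in either Lyl1-null library.

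Where a member had several probe sets above the filter, they often disagreed at these sizes. Of 45 such members, 34 had 1 sign over all of them in replicate 1 and 30 in replicate 2. Atp5c1, the gamma subunit, read −0.47 and 0.13 in replicate 2 from its 2 probe sets, and Atp5a1, the alpha subunit, 0.32, −0.18 and 0.09 from its 3.

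Other mitochondrial genes were read from lists chosen with earlier results known, and 0 genes of any list passed in the fit of all 4 libraries. The counts called in replicate 2 stand beside 10.8% of all genes called lower and 3.94% called higher there, and nothing particular to a list is read from them. Of 43 assembly factors tested, 35 lay above wild type in replicate 1 (median 0.16) and 28 below it in replicate 2 (−0.15), where 2 passed upward and 4 downward. The 2 were Coa6 (0.82), a complex IV assembly factor, and Uqcc2 (0.72), one of complex III; each was also above both wild-type libraries in replicate 1, at 0.33 and 0.36. The 4 were Ndufaf8 (−0.65), Foxred1 (−0.96), Cox15 (−1.02) and Lrpprc (−0.94). Of 73 mitochondrial ribosomal protein genes, 62 lay above wild type in replicate 1 (median 0.11), and 52 lay below it in replicate 2 (−0.16), with 10 called lower, among them Mrps5 (−1.29). Mrpl57 was above wild type in both, at 0.36 and 0.20, and did not pass. Of 23 import genes, 19 lay above wild type in replicate 1 (median 0.13) and 15 below it in replicate 2 (−0.28). The 4 called there, all lower, were Timm13 (−0.69), Timm17b (−0.66), Timm44 (−0.77) and Timm50 (−0.69), parts of the inner-membrane import machinery, while Grpel1 (0.64) and Timm8a1 (0.42) did not pass. Of 46 cytosolic ribosomal protein genes, 27 were above wild type in replicate 1 (median 0.010) and 41 below it in replicate 2 (−0.29), where Rpl11 (−0.63), Rps10 (−0.79), Rps14 (−1.14) and Rps4l (−1.53) passed. Rps27l, at 0.47 and 0.34, did not. Differences between these lists were not tested.

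Enzymes that feed the chain and the factors that regulate it are read against the same background, with 14.8% of all genes called in either direction in replicate 2. Of 16 TCA cycle genes, 1 passed upward and 1 downward in replicate 2. The former was Ogdh (0.99), and the latter Dlst (−1.33), the succinyltransferase of the oxoglutarate dehydrogenase complex, at 11.98 and 12.15 in wild type, then at 11.95 and 10.73. Both belong to that complex. Dlat, of pyruvate dehydrogenase, read 0.23 and 0.43 and did not pass. Of 17 glycolytic genes, 13 lay below wild type in replicate 2 (median −0.31). Hk3 (0.89) was called higher there and Pkm (−0.81) and Aldoc (−0.88) lower, and Aldoc also read −0.52 in replicate 1, where it did not pass. Pfkm read −0.44 and −0.36, neither past the threshold. With all 4 libraries, averaging probe sets moved the difference from −0.72 to −0.22 for Dlst and from −0.70 to −0.23 for Aldoc. For Dlat it moved from 0.33 to 0.022. Of 14 hypoxia response genes, 1 passed upward and 1 downward in replicate 2, Epas1 (0.92) and Pdk1 (−1.13), the kinase that restrains pyruvate entry. Ankrd37 read −0.38 and −0.27 and did not pass. Of 17 regulators, Yy1 (0.74) and Tfb2m (−0.70) passed in replicate 2. Tfam, the packaging and transcription factor of mitochondrial DNA, was at 8.32 and 8.42 in wild type, then at 8.01 and 8.07 (difference −0.33, SE 0.16, adjusted p = 0.644). Polg, the mitochondrial DNA polymerase, was at 7.57 and 7.86, then at 7.34 and 7.09 (−0.50, SE 0.19, adjusted p = 0.644), so both genes were lower in both Lyl1-null libraries without passing. Of 14 other subunits and carriers outside the name rule, 0 passed in any of the 3 fits, and Cox4i1, a core-binding subunit of complex IV, read −0.02 and −0.33. Etfdh, which feeds electrons from fat oxidation to ubiquinone, read −0.28 and −0.32.

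**Figure D4:**
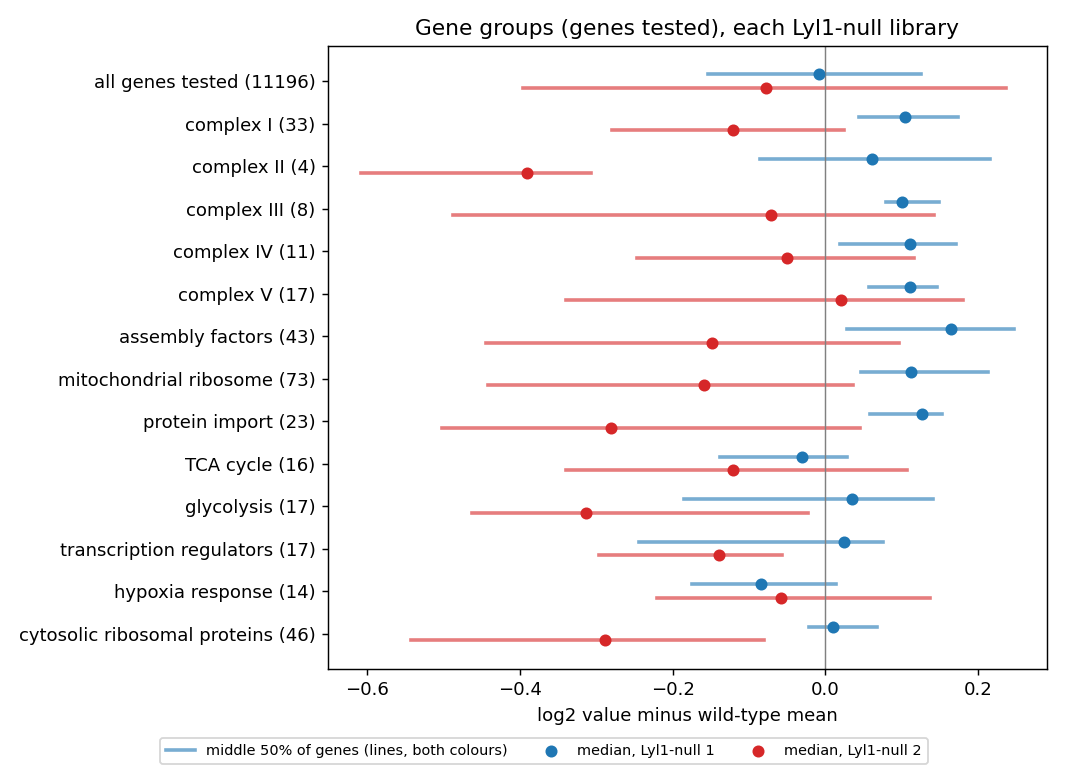
Gene groups with the number of genes tested are listed on the vertical axis; dots give the median and lines the middle 50% of the log2 values of each Lyl1-null library minus the wild-type mean (blue, replicate 1; red, replicate 2). Complexes I, III, IV and V, assembly factors, mitochondrial ribosome and import genes have blue medians from 0.10 to 0.16, and red medians are lowest for complex II (−0.39) and glycolysis (−0.31).

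The sizes of the differences and the positions against both wild-type libraries are given as a description. In replicate 2, 16.4% of members differed by more than 0.5 on the log2 scale, against 29.3% of all genes tested, and in replicate 1 the shares were 1.37% and 4.80%. The wild-type libraries differed from each other by a median of 0.10 over members and 0.15 over all genes tested. In replicate 1, 45 of 73 members (61.6%) lay above both wild-type libraries and 7 (9.59%) below both, where 33.4% and 35.1% of all genes did. In replicate 2, 21 (28.8%) lay above and 44 (60.3%) below, where 36.2% and 49.9% of all genes did. With 1 library on one side, these counts carry no replicate check.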

How the data were processed

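Gene expression was measured on 4 arrays of sorted LMPPs, 2 per genotype. The authors deposited log2 expression values per probe set obtained by RMA (per the submitters' processing notes). The values were used as deposited. The RMA version and any joint normalization of the arrays were not stated there. Of 45037 probe sets, 34945 list 1 gene, 932 several and 9160 none, and the latter 2 kinds were left out. For each of 18193 genes the brightest probe set by mean value was taken, and 11196 genes were tested, those with a mean at or above the median of probe-set means (5.69).

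Groups were compared with limma 3.58.1 (lmFit, eBayes) in R 4.3.3, two-sided, with Benjamini-Hochberg adjustment over all genes tested at 0.05, and the replicate number was not a block. Members and lists were described by counts and medians, without a test over a list. Members, lists and named genes were chosen with earlier results of these data known. Named were Lyl1, complex II, the isoform families, subunit c, the 3 smallest p in each direction per complex, members past the threshold in a fit with 1 Lyl1-null library, the 5 largest differences in each direction without overlap and the 2 smallest p per list. The test was tested on simulated data, with 200 of 11196 genes changed, in 20 runs. With 1 library against 2 the recovery was 1.00% at 2-fold and 61.2% at 4-fold. That setting was not matched to the fit of the library labelled Lyl1-null 2, so the recovery does not describe its calls. Promoters came from RefSeq (GRCm38.p6). Alternatives were the filter, the mean of probe sets, quantile normalization, median centring, the prior, the threshold, the replicate block and each library left out.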

Additional observations from a re-analysis of the deposited data

How the results depend on the processing

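No respiratory chain gene passed with all 4 libraries under the alternatives run, except leaving out a library, where the count ran from 0 to 4 and the 4 came without the library labelled Lyl1-null replicate 1. Over all genes, 1 passed; the count was 4 with no filter and with a trended prior, 0 with the 90th percentile filter or with probe sets averaged, 2 with quantile normalization and with median centring, 6 at a threshold of 0.10, and from 1 to 1652 with a library left out. With the replicate block it was 3, and 0 members passed. Whether the replicate numbers pair the samples cannot be told from these values. The differences between the replicates of each group correlated at −0.407 over genes. However, the libraries labelled Lyl1-null were at least 2-fold apart in 518 genes, against 42 between the wild-type libraries, so this value does not decide it. A crossed replicate block, chosen after seeing the data, called 1 gene and 0 members. With a library left out, medians ran from −0.12 to 0.10 for complex I, −0.39 to 0.061 for complex II, −0.071 to 0.10 for complex III, −0.051 to 0.11 for complex IV and 0.012 to 0.11 for complex V, the last at −0.020 with median centring; the ends came without 1 of the libraries labelled Lyl1-null, except 0.012. Sdhb ran from −1.21 to 0.18, Uqcrc1 from −0.81 to 0.0898 and Atp5l from −0.69 to 0.0572, each positive without the library labelled Lyl1-null replicate 2.

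Settings for that library alone against wild type were added after seeing the data. The 4 calls became 0 with no filter, 7 with probe sets averaged or with quantile normalization, 12 with median centring and 10 at 0.10, and the median of members became −0.22 with median centring. The cause was not tested. Calls over all genes also moved under these settings, and nothing particular to the members is read from the counts. Of 754 alternative values for single genes, 733 kept their side of the threshold; sign changes below the SE were seen in 20 values of 10 genes. Another 13 gained a call, 5 lost one and 3 reversed. Leaving out a wild-type library from a fit with 1 Lyl1-null library gives 1 array against 1, a value with no test. The number of arrays limits what these fits can show.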
